A study of Mus musculus with 5 samples.

Results

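Cytokine and growth factor receptors are the surface proteins through which marrow cells sense interleukins, interferons, colony-stimulating factors, stem cell factor, FLT3 ligand, erythropoietin and transforming growth factor beta. The genes described were taken by symbol from a list of 39, with no cut on measured values, and all 39 were found among the 22098 symbols of the table. The list itself was drawn up with earlier results of these data known. Where a symbol had more than 1 transcript, the one with the highest mean over the libraries stands for the gene. RNA came from marrow cells of C57BL/6 mice, 6 to 7 weeks old, sorted as Hardy fraction A (the earliest B lineage fraction in that scheme) with no depletion of other lineages. The 5 libraries were 2 from wild-type mice (wt), 2 from mice homozygous for a mutation of Ikaros zinc finger 1 (Ikaros_ZnF1-/-, called dF1) and 1 of the zinc finger 4 mutant (Ikaros_ZnF4-/-, called dF4), which the submitters describe as poorly covered. The labels name no promoter, Cre or cell type that limits either mutation. The submitters call the dF1 libraries biological replicates, but nothing tells if the wt libraries are from different animals, so p-values reflect only the spread among these samples, which may be technical. Levels are RPKM, reads per kilobase scaled to the library, and can be compared between genes because they are per length. Pairs of values below are replicate 1 and then replicate 2.

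Most of these receptors work as assemblies of chains. In the type I family a ligand-specific chain joins a shared chain (the common gamma chain Il2rg, the common beta chain Csf2rb or gp130, encoded by Il6st), and the assembly signals through JAK kinases and STAT factors. Interferon and IL-10 receptors, the type II family, use the same kinases. Kit, Flt3 and Csf1r are tyrosine kinases themselves, IL-1 and IL-18 receptors signal through Myd88 and Irak kinases, and TGF-beta receptors through SMAD factors. In marrow, IL-7 receptor and Flt3 mark early lymphoid cells, Flt3 also marks dendritic cells, IL-15 receptor chains support NK cells, and the receptors for G-CSF, M-CSF, GM-CSF, IL-5 and erythropoietin mark granulocyte, monocyte, eosinophil and red cell lineages. Ikaros (gene Ikzf1) binds DNA through zinc fingers and acts in lymphoid development, and the series asked what its separate fingers do in these cells.

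Some facts of the whole series bear on every value. Ikzf1 was at 175.8 and 141.1 RPKM in wild type, 182.2 and 182.1 in dF1 and 237.7 in dF4, a value over the whole transcript that does not check the loss of a finger. From the step of its low values the dF4 library held about 597000 reads, whereas the depth of the other libraries is unknown. Xist was at 77.7 to 93.2 RPKM in both wt libraries and dF1 replicate 1 and listed at 0 in dF1 replicate 2 and dF4, so the sex of the mice differed within dF1. The labels call the cells pro-B cells, and all 12 early B markers were present, at a summed 756.7 and 487.4 RPKM in wild type, 612.9 and 582.2 in dF1 and 1355.6 in dF4. Markers of plasmacytoid dendritic cells (pDC, 15 genes) were higher in wt and dF1, at 5667.5 and 6521.7 RPKM in wild type and 5101.8 and 5809.7 in dF1, against 1315.8 in dF4. The 14 neutrophil markers were at 34366.3 RPKM in dF4 against 222.1 to 1106.5 in the others. The wt libraries also differed from each other, with 11 NK cell markers at 1746.4 and 784.2 RPKM. In such bulk samples, fewer cells of a type and less RNA per cell cannot be told apart.

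**Figure D1:**
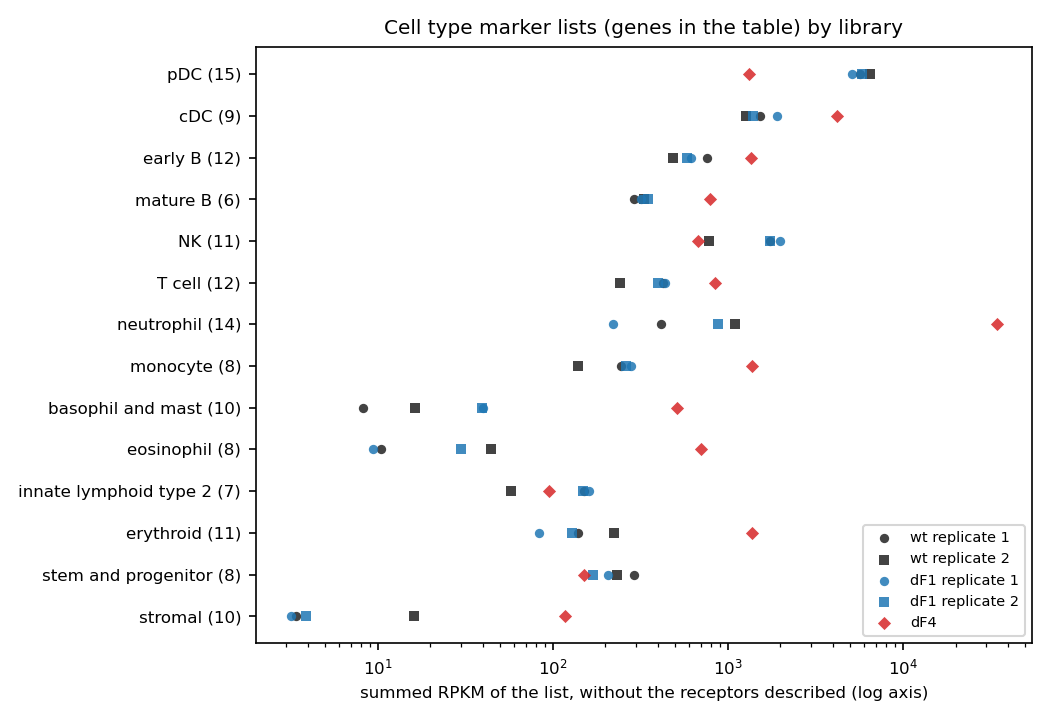
Summed RPKM (log axis) of lists of cell type markers in each library, without the receptors described. Symbols are single libraries and the number of genes in the table is in brackets. The dF4 library is lowest for pDC markers and highest for neutrophil, eosinophil, basophil and mast, and erythroid markers, and wt replicate 2 lies near dF4 for NK markers.

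The wt cells had the most RNA, by the mean of their libraries, of Il2rb, Flt3, Il2rg and Ifnar2, the 4 receptors above 100 RPKM. They were followed by Csf2rb2, Il10rb, Il7r, Il10ra, Ifngr1, Il17ra, Ifnar1 and Csf2rb, all above 50 RPKM. In all, 26 of the 39 had a wt mean of at least 10 RPKM, and 5 were under 1 RPKM, namely Epor, Il1r1, Il1rl1, Il5ra and Il9r. The ranges of Flt3, Il2rg and Ifnar2 over the wt libraries overlapped or touched one another, so their order is not resolved.

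**Figure D2:**
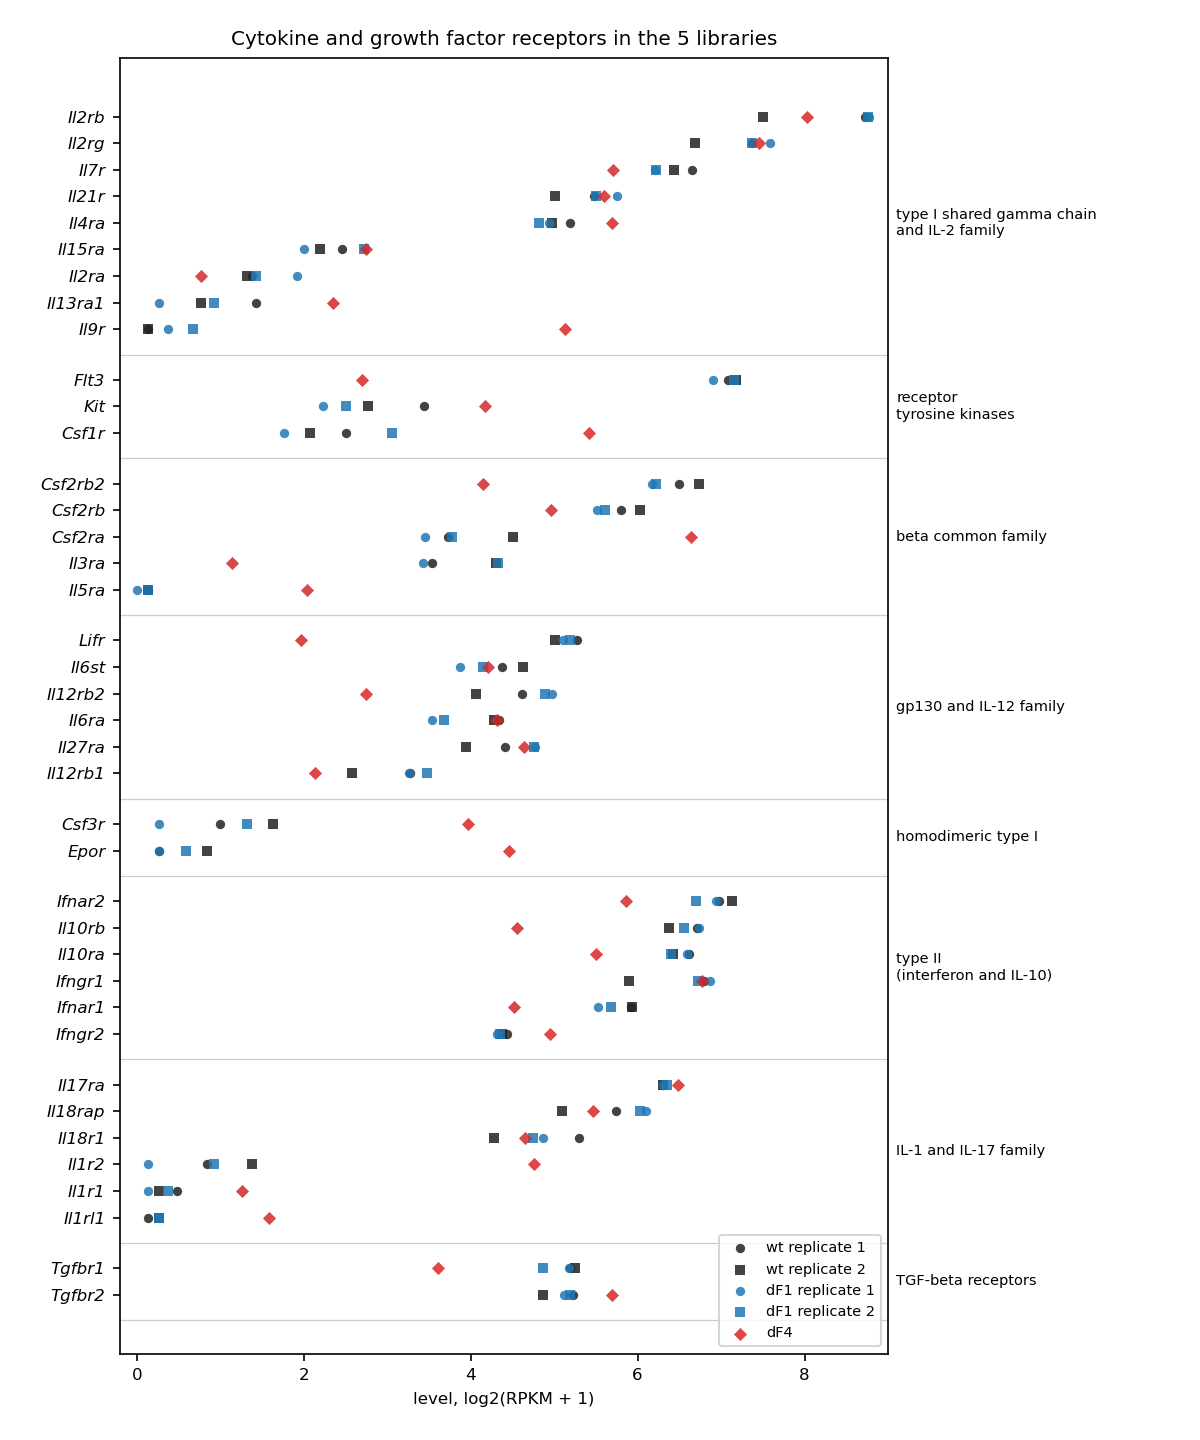
Level of each of the 39 receptors on the log2(RPKM + 1) scale, 1 symbol per library, grouped by receptor family. The dF4 library (red) lies far left of the others for Flt3, Lifr, Il3ra and Csf2rb2 and far right for Il9r, Epor, Il1r2, Csf1r, Csf3r and Csf2ra, whereas wt (black) and dF1 (blue) lie close together.

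The first comparison asked how loss of finger 1 changes these receptors, and none of them passed. limma tested 36 of the 39 (3 had a mean under 1 RPKM over the 5 libraries), and 0 of 36 passed at an adjusted p of 0.05, as did 0% of the 12213 transcripts tested. The lowest adjusted p was 0.312, for Il6ra. At an unadjusted p under 0.05 there were 10 of 36 (3 higher and 7 lower in dF1), beside 7.16% of all transcripts. The dF1 and wt libraries did not overlap for 18 of 36, beside 34.7% of all transcripts (7 higher in dF1, beside 16.9%, and 11 lower, beside 17.9%). The median difference on the log2(RPKM + 1) scale was -0.04 over the receptors and 0.01 over all transcripts. Its median size was 0.34 over the receptors and 0.14 over all transcripts. Between the wt libraries the median size was 0.34 over the receptors and 0.19 over all transcripts. The former are differences of means of 2 libraries and the latter of single libraries, so their sizes are not on equal terms. With no overlap and a difference of at least 0.5 there were 6 receptors, beside 5.95% of all transcripts. These were Kit and Il6ra, lower in dF1, and Il2rb, Il18rap, Il12rb2 and Il27ra, higher in dF1.

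**Figure D3:**
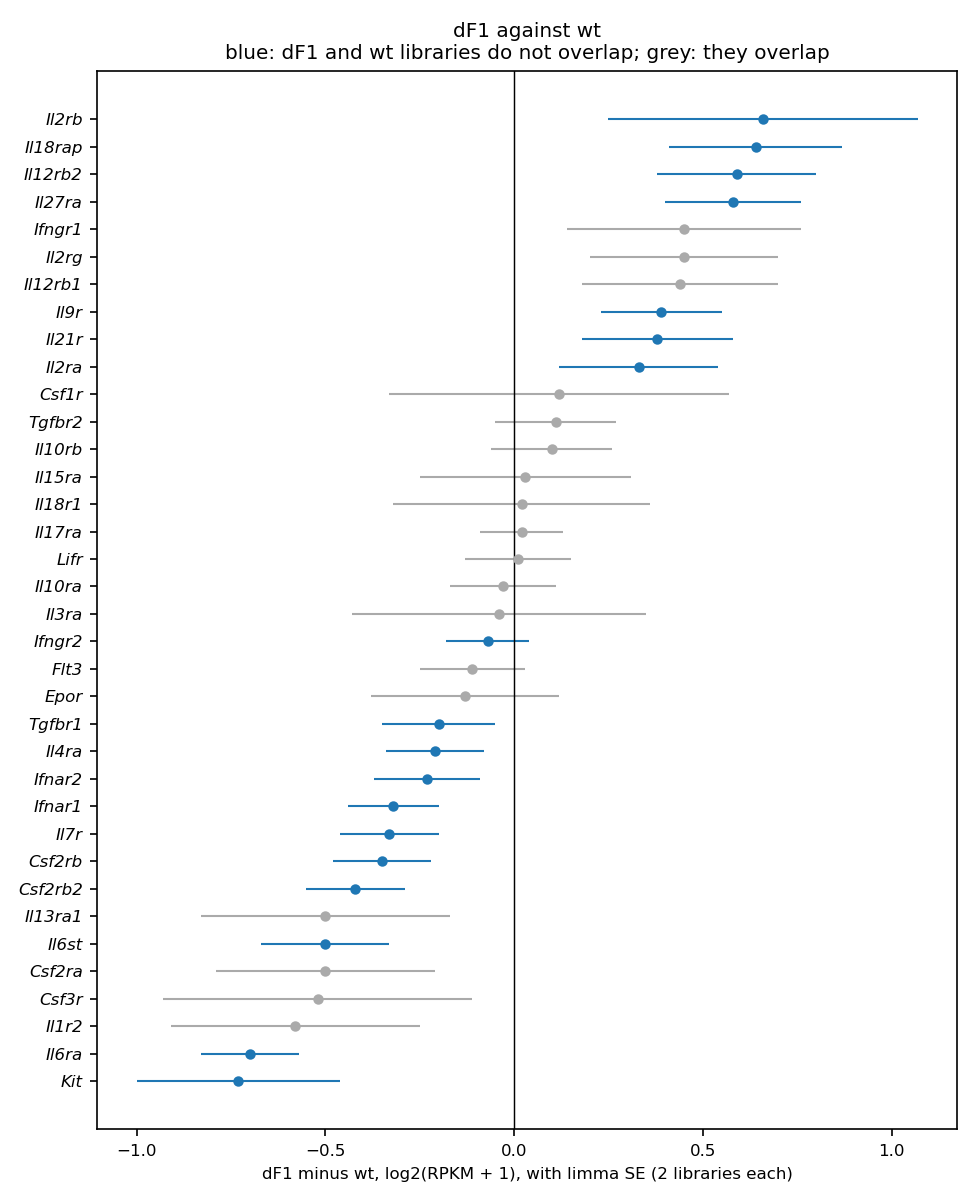
Difference of dF1 from wt for the 36 receptors tested, on the log2(RPKM + 1) scale, with the standard error from limma (2 libraries in each group). Blue marks receptors whose dF1 and wt libraries do not overlap. Differences run from -0.73 for Kit to 0.66 for Il2rb, and none passed the correction over all transcripts.

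The second comparison was of finger 4, for which dF4 is a single library, with no replicate and no test. It shares the wt libraries with the first and, by Xist, differs from them in the sex of the mice. In dF4, Flt3 was at 3.94% of its wt mean, Lifr at 8.42% and Csf2rb2 at 17.1%, while Csf2ra was 5.78-fold, Csf3r 9.42-fold and Csf1r 10.6-fold above it. The size rule used for dF4 asked for a value beyond both wt libraries and at least 1 away from their mean on the log2(RPKM + 1) scale. By this rule 8 of 36 were higher, beside 13.4% of all transcripts, and 10 of 36 were lower, beside 12.9%. The filter on the mean includes dF4, and 4 of the 36 (Il9r, Epor, Il1r2 and Il13ra1) passed it only through dF4. Among the 34 with a wt mean of at least 1 RPKM, 6 were higher (9.72% of all transcripts) and 10 lower (14.5%). The median difference was 0.03 over the receptors and 0.02 over all transcripts, and its median size 0.98 and 0.53. Il10ra, at -1.02, was just inside the rule and Csf2rb, at -0.95, just outside. Intervals given for dF4 are exact 95% Poisson intervals on its estimated reads and cover counting error only.

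**Figure D4:**
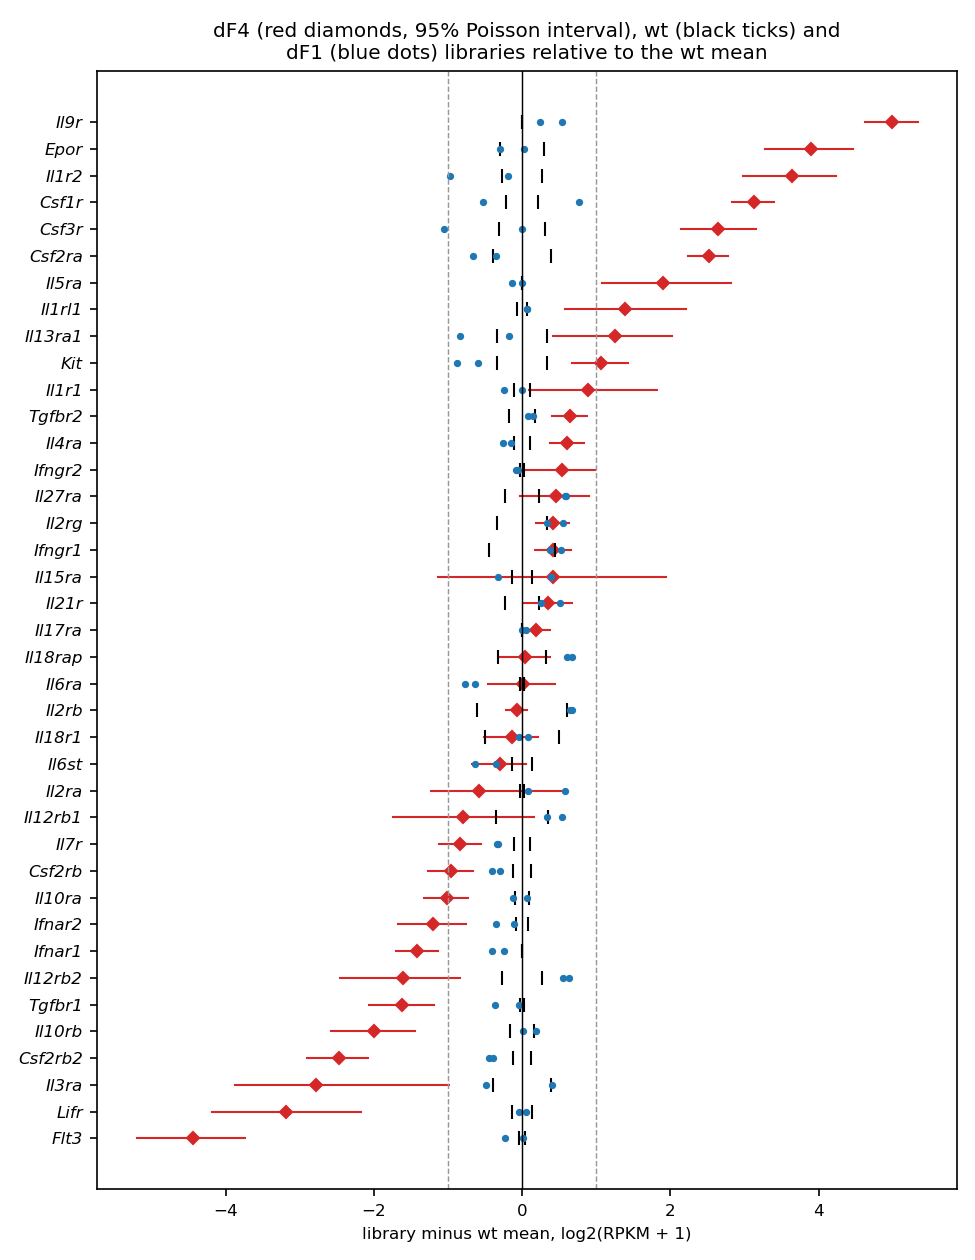
The dF4 library (red diamonds with 95% Poisson intervals), the wt libraries (black ticks) and the dF1 libraries (blue dots) for all 39 receptors, as differences from the wt mean on the log2(RPKM + 1) scale. Dashed lines mark a difference of 1. The dF4 values run from -4.43 for Flt3 to 5 for Il9r, and the dF1 dots mostly lie within 1 of the wt mean.

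The common gamma chain family held Il2rb, the receptor with the highest wt mean and the widest difference between the wt libraries. Il2rb, the beta chain of the IL-2 and IL-15 receptors, was at 420.4 and 179.9 RPKM in wild type, 437.8 and 430.9 in dF1 and 261.4 in dF4. Both dF1 libraries lay above wt, but wt replicate 1 lay close to them and only wt replicate 2 was far below. Its dF1 difference was 0.66 (SE 0.41, limma adjusted p = 0.801). It was 0.05 without wt replicate 2 and 1.27 without wt replicate 1. Il2rg, the common gamma chain itself, was at 164.9 and 102.5 RPKM in wild type, 191.6 and 164.4 in dF1 and 174.7 in dF4, with the low value again in wt replicate 2. The NK markers were also low in wt replicate 2, at 1746.4 and 784.2 RPKM in wild type, 1994.4 and 1731.6 in dF1 and 675.3 in dF4. So were the 12 T cell markers, at 426.9 and 241.8 RPKM in wild type, 437.6 and 402.0 in dF1 and 840.5 in dF4. The 12 early B markers were at 756.7 and 487.4, 612.9 and 582.2, and 1355.6. In no library was any of the 11 NK markers listed at 0. The part of NK, T or B cell RNA in the differences between wt and dF1 was not tested.

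Il7r, the IL-7 receptor alpha chain that early B and T cells need, was at 99.3 and 85.9 RPKM in wild type, 73.0 and 73.5 in dF1 and 51.3 (interval 41.9 to 62.7) in dF4. Its libraries fell into a strict order, with wt above dF1 and dF1 above dF4. The dF1 difference was -0.33 (SE 0.13, limma adjusted p = 0.686) and the dF4 value was 55.4% of the wt mean. Il21r, which marks lymphocytes, was at 43.7 and 31.3 RPKM in wild type, 53.0 and 44.3 in dF1 and 47.6 in dF4. Il4ra, the IL-4 receptor alpha chain, was at 35.6 and 30.5 RPKM in wild type, 29.6 and 27.3 in dF1 and 50.9 (43.1 to 59.5) in dF4, where it exceeded all 4 other libraries. Il15ra, which presents IL-15 to the beta chain, lay between 3.0 and 5.7 RPKM in every library. Il2ra, the alpha chain that gives high affinity for IL-2, lay between 0.7 and 2.8 RPKM, and Il13ra1 was at 1.7 and 0.7 in wild type, 0.2 and 0.9 in dF1 and 4.1 in dF4. Il9r, the IL-9 receptor alpha chain, was at 0.1 RPKM in each wt library, 0.3 and 0.6 in dF1 and 34.1 (26.2 to 43.6, about 63 reads) in dF4. The dF4 library was the only one of the 5 with Il9r above 1 RPKM. The 6 mature B cell markers in the table were at 291.8 to 350.0 RPKM in wild type and dF1 and 787.7 in dF4. Of these sums, Cd37 made 271.0 to 337.3 RPKM in wild type and dF1 and 412.4 in dF4. Ms4a1 was at 0.9 to 1.6 RPKM in wild type and dF1 and 80.9 in dF4. Among the 5 tested, 4 met the size rule as higher in dF4, beside 13.4% of all transcripts, and 0 as lower. Fcer2a, among the 4, passed the filter on the mean only through dF4. The 10 basophil and mast cell markers were at 8.2 and 16.3 RPKM in wild type, 39.9 and 39.4 in dF1 and 516.0 in dF4. Of the 10, 7 met the size rule as higher in dF4, among them the basophil proteases Mcpt8 (146 RPKM) and Prss34 (274.2). Cpa3, Fcer1a, Gata2 and Ms4a2, also among the 7, passed the filter on the mean only through dF4. Cma1, a mast cell protease, made 4.2 and 1.8 RPKM of the wt sums and 32.1 and 22.2 of the dF1 sums, and was listed at 0 in dF4. Of the 8 tested, 5 were higher in dF1 than in wt and 3 lower. Tpsb2 and Mcpt4 were listed at 0 in all 5 libraries. The part of basophils, mast cells and mature B cells in the Il9r value was not tested.

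The receptor tyrosine kinases differed from one another. Flt3, the receptor of FLT3 ligand, was at 135.1 and 144.1 RPKM in wild type, 118.8 and 141.2 in dF1 and 5.5 (2.82 to 9.53, about 12 reads) in dF4. The wt and dF1 libraries overlapped and dF4 lay far below all of them, at 3.94% of the wt mean (2.02 to 6.83). Kit, the stem cell factor receptor, was at 9.9 and 5.8 RPKM in wild type, 3.7 and 4.7 in dF1 and 17.1 (12.8 to 22.3) in dF4. Its dF1 difference was -0.73 (SE 0.27, limma adjusted p = 0.682), and it was -1.07 without wt replicate 2 and -0.39 without wt replicate 1. Csf1r, the M-CSF receptor of monocytes and macrophages, was at 4.7 and 3.2 RPKM in wild type, 2.4 and 7.3 in dF1 and 41.7 (33.8 to 50.8) in dF4. The dF1 libraries lay on either side of wt, and dF4 was 10.6-fold (8.55 to 12.9) above the wt mean. The 8 other monocyte markers in the table were at 139.0 to 280.7 RPKM in wild type and dF1 and 1381.4 in dF4, of which Lyz2, also a neutrophil gene, made 1124.3. Of the 8, 4 met the size rule as higher in dF4, beside 13.4% of all transcripts, and 0 as lower. Emr1, among the 4, passed the filter on the mean only through dF4. Ccr2 was at 63.8 RPKM in dF4 and 46.6 to 148.3 in the others, and Ly6c2 at 39.2 and 28.6 to 108.2, so neither was raised in dF4.

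In the beta common family the Csf2rb and Csf2rb2 chains parted in dF4. Csf2rb encodes the beta chain shared by the IL-3, IL-5 and GM-CSF receptors, and Csf2rb2 its mouse duplicate, which serves IL-3. The genes are adjacent on chromosome 15 in the RefSeq annotation of GRCm38.p6. The coding sequences of their reference transcripts (GENCODE M21) had 95.2% identity over 2628 aligned bases, with an identical run of 242 bases. Of the windows of 50 bases in the Csf2rb2 coding sequence, 26.6% also occurred in Csf2rb. How the authors shared reads between such copies is not given, so the values of both genes are uncertain to that extent. The stretches of 120 bases most and least alike show where reads can and cannot tell the genes apart, with coding positions counted from the start codon and capitals marking the 22 bases that differ. At positions 2083 to 2202 of both genes there was no difference:
Csf2rb: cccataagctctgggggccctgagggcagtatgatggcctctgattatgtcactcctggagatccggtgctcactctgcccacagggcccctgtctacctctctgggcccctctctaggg
Csf2rb2: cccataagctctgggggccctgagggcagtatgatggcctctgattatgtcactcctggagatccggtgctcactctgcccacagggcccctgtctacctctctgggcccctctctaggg
At positions 309 to 428 of Csf2rb and 312 to 431 of Csf2rb2 the genes differed most:
Csf2rb: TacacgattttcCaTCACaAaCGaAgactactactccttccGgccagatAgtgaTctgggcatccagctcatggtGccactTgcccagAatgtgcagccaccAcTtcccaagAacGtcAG
Csf2rb2: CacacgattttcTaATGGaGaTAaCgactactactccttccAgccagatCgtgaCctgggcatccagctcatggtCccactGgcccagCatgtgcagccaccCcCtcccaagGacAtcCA

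Csf2rb2 was at 89.4 and 105.7 RPKM in wild type, 71.4 and 73.6 in dF1 and 16.7 (12.2 to 22.2) in dF4. Csf2rb was at 54.6 and 64.5 RPKM in wild type, 44.7 and 48.0 in dF1 and 30.2 (24.1 to 37.2) in dF4. Each gene was lower in both dF1 libraries than in both wt libraries, by -0.42 (SE 0.13, limma adjusted p = 0.616) for Csf2rb2 and by -0.35 (SE 0.13, adjusted p = 0.686) for Csf2rb. The ratio of Csf2rb2 to Csf2rb was 1.64 and 1.64 in wt and 1.60 and 1.53 in dF1, and 0.552 in dF4 (exact 95% binomial interval 0.377 to 0.798 on 46 and 86 reads). The order of the copies was thus the same in all 4 wt and dF1 libraries and the opposite in dF4.

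The alpha chains that pair with these beta chains went apart as well. Il3ra, the IL-3 receptor alpha chain and a pDC surface marker in humans, was at 10.6 and 18.8 RPKM in wild type, 9.8 and 19.1 in dF1 and 1.2 in dF4. The dF4 value rests on about 1 read, so it lies at 8.16% of the wt mean with an interval of 0.205 to 45.1. Csf2ra, the GM-CSF receptor alpha chain, was at 12.3 and 21.8 RPKM in wild type, 10 and 12.7 in dF1 and 98.6 (81.3 to 119) in dF4. In every wt and dF1 library Csf2ra was below Csf2rb, at ratios of 0.224 to 0.338, while in dF4 the ratio was 3.26. Il5ra, the IL-5 receptor alpha chain of eosinophils, was at 0.1 RPKM or below in wt and dF1 and at 3.1 (1.32 to 6.77, about 7 reads) in dF4. The 8 eosinophil markers were at 10.4 and 44.4 RPKM in wild type, 9.4 and 30.1 in dF1 and 699.4 in dF4, and 0 of 8 were listed at 0 there. Their part in the Il5ra and Csf2ra values was not tested.

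In the gp130 and IL-12 family, Il6ra had the smallest p-value of all receptors in dF1. Il6ra, the IL-6 receptor alpha chain, was at 19.2 and 18.5 RPKM in wild type, 10.6 and 11.8 in dF1 and 19.0 (13.4 to 26.0) in dF4. The wt and dF4 libraries lay together and both dF1 libraries below them, at 59.4% of the wt mean. The dF1 difference was -0.70 (SE 0.13, limma unadjusted p = 0.00257, adjusted p = 0.312), it lay between -0.63 and -0.77 with any 1 library left out, and its adjusted p was between 0.146 and 0.931 over all alternatives. Il6st, which encodes the shared chain gp130, was at 19.7 and 23.8 RPKM in wild type, 13.6 and 16.7 in dF1 and 17.5 in dF4, a dF1 difference of -0.50 (SE 0.17, adjusted p = 0.659). Both chains of the IL-6 receptor were thus lower in both dF1 libraries, and neither passed. The summed level of 8 stem and progenitor markers (without Kit) was 291.1 and 232.9 RPKM in the wt libraries and 206.5 and 168.9 in dF1, and this difference was that of Ly6a, at 146.1 and 105.5 against 67.2 and 28.1. Without Ly6a the sums overlapped, at 145 and 127.4 RPKM in the wt libraries and 139.3 and 140.8 in dF1. Cd48 made most of these sums, at 133.8 and 112.3 RPKM in wild type and 127.5 and 127.7 in dF1. Cd34 was higher in dF1 (4.7 and 5.4 against 1.7 and 2.1). Hoxa9 (2.4 and 3.2 against 3.8 and 5.4), Meis1 (4.6 and 3.8 against 4.7 and 6.2) and Procr (0.1 and 0.3 against 0.8 and 1.0) were lower. The part of the stem and progenitor markers in the Il6ra and Il6st values was not tested.

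Lifr, the receptor chain for leukemia inhibitory factor that joins gp130, was at 37.7 and 31.2 RPKM in wild type, 33.4 and 35.6 in dF1 and 2.9 (0.95 to 6.83, about 5 reads) in dF4. Its second transcript gave the same picture, at 32.8 and 24.1 RPKM in wild type, 31.3 and 28.7 in dF1 and 2.8 in dF4. Wt and dF1 overlapped, and the ratio of Lifr to Il6st was 1.31 to 2.46 in those 4 libraries and 0.166 in dF4. Flt3, Lifr, Il3ra and Csf2rb2 were lower in dF4, as were 13 of 15 pDC markers by the same rule, beside 12.9% of all transcripts. Siglech was at 5.5 RPKM against 936.2 and 838.4 in wt, and Cox6a2 and Klk1 were listed at 0. Ptprcap met the rule as higher (381.8 against 186.5 and 161.7) and Tlr9 did not meet it. Among the 8 conventional dendritic cell markers tested, 3 were lower by the rule, among them Itgax (0.4 RPKM against 98.5 and 118.5 in wt). Higher by it were 4, of which Batf3 passed the filter on the mean only through dF4. The part of pDC or other dendritic cell RNA in the values of these 4 receptors was not tested.

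The IL-12 receptor chains and Il27ra were compared next. Il12rb2, the signalling chain of the IL-12 receptor, was at 23.6 and 15.8 RPKM in wild type, 30.5 and 28.7 in dF1 and 5.7 (2.71 to 10.4) in dF4. Its partner Il12rb1 was at 8.7 and 5.0 RPKM in wild type, 8.6 and 10.1 in dF1 and 3.4 in dF4. Il27ra, the IL-27 receptor alpha chain, was at 20.2 and 14.4 RPKM in wild type, 26.2 and 26.0 in dF1 and 23.9 in dF4. Both dF1 libraries exceeded both wt libraries for Il12rb2 (0.59, SE 0.21, limma adjusted p = 0.662) and Il27ra (0.58, SE 0.18, adjusted p = 0.615). Without wt replicate 2 these differences were 0.31 and 0.35, and without wt replicate 1 they were 0.86 and 0.82. Of the Il12rb2 reference transcript, 24.6% of windows of 50 bases also occurred in transcripts of Serbp1, a gene that the table lists too, so part of its level is uncertain.

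The homodimeric receptors of the myeloid and red cell lineages were near the bottom in wt and high in dF4. Csf3r, the G-CSF receptor of neutrophils, was at 1.0 and 2.1 RPKM in wild type, 0.2 and 1.5 in dF1 and 14.6 (10 to 21.2, about 30 reads) in dF4. Epor, the erythropoietin receptor, was at 0.2 and 0.8 RPKM in wild type, 0.2 and 0.5 in dF1 and 21.0 (13.3 to 31.4, about 23 reads) in dF4. For both genes replicate 2 exceeded replicate 1 in wt and in dF1, and dF4 exceeded all 4. The neutrophil markers had the same order, at 413.3 and 1106.5 RPKM in wild type, 222.1 and 874.9 in dF1 and 34366.3 in dF4. So did the sums of the 11 erythroid markers in the table, at 138.6 and 223.2, 83.4 and 128.5, and 1368.8. Tfrc made 111.5 and 152.6 RPKM of the erythroid sums in wild type and 65.3 and 66.9 in dF1, and was at 36.9 in dF4. Of the 11, 10 met the size rule as higher in dF4, beside 13.4% of all transcripts, and Tfrc met it as lower. Among the 10, Epb4.2, Gata1, Klf1 and Rhag passed the filter on the mean only through dF4. None of the 14 neutrophil or 11 erythroid markers was listed at 0 in any library, and their part in the Csf3r and Epor values was not tested.

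Of the type II receptors, those for type I interferon and IL-10 were lower in dF4 and those for interferon gamma were not. Ifnar1, which with Ifnar2 forms the type I interferon receptor, was at 59.7 and 60.2 RPKM in wild type, 45.2 and 50.3 in dF1 and 21.9 (17.7 to 26.9) in dF4. Its wt libraries differed by less than 1 RPKM, both dF1 libraries lay below them, and dF4 lay at 36.5% of the wt mean (29.5 to 44.9). The dF1 difference was -0.32 (SE 0.12, limma adjusted p = 0.668). Ifnar2 was at 124.4 and 139.5 RPKM in wild type, 122.0 and 103.4 in dF1 and 57.0 (40.7 to 77.5) in dF4. Its longer transcript was at 89.5 and 91.1 in wild type, 81.3 and 81.9 in dF1 and 26.3 in dF4, so both forms were lower in dF4.

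Il10ra, the ligand-binding chain for IL-10, was at 97.4 and 84.8 RPKM in wild type, 95.2 and 83.2 in dF1 and 44.4 (35.9 to 54.5) in dF4. Il10rb, its partner, was at 103.9 and 82.2 RPKM in wild type, 105.5 and 93.3 in dF1 and 22.5 (14.6 to 33.3) in dF4. Wt and dF1 overlapped for both IL-10 receptor chains, and dF4 held 48.7% and 24.2% of their wt means. Ifngr1, the ligand-binding chain for interferon gamma, was at 110.4 and 58.7 RPKM in wild type, 116.1 and 104.8 in dF1 and 108.3 in dF4, with wt replicate 2 low as for Il2rb. Ifngr2 was at 20.6 and 19.8 RPKM in wild type, 19.0 and 19.4 in dF1 and 29.9 (21.0 to 41.1) in dF4. Ifnar2, Il10rb, Ifnar1 and Ifngr2 follow one another on chromosome 16 with no other protein-coding gene between them in the RefSeq annotation of GRCm38.p6. The first 3 of these neighbours were lower in dF4 than in all other libraries and the last was higher. Ifnar2 and Il10rb share 25.3% and 29.0% of their windows of 50 bases with an annotated transcript that spans both, Gm21970, which the authors' table does not list.

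The IL-1 family held IL-18 receptor chains at moderate levels and IL-1 receptors near 0 in wt. Il18rap, the accessory chain of the IL-18 receptor, was at 52.7 and 33.2 RPKM in wild type, 67.6 and 64.2 in dF1 and 43.2 in dF4. Il18r1, the ligand-binding chain, was at 38.2 and 18.5 RPKM in wild type, 28.3 and 25.9 in dF1 and 24.1 in dF4. Il18rap was higher in both dF1 libraries than in wt (0.64, SE 0.23, limma adjusted p = 0.673), while Il18r1 overlapped. The Il18rap difference was 0.32 without wt replicate 2 and 0.97 without wt replicate 1. The ratio of Il18rap to Il18r1 was 1.38 and 1.79 in wild type, 2.39 and 2.48 in dF1 and 1.79 in dF4, so that the dF1 libraries had the highest ratios. Il1r2, a decoy receptor of neutrophils that binds IL-1 without signalling, was at 0.8 and 1.6 RPKM in wild type, 0.1 and 0.9 in dF1 and 26.1 (16.1 to 39.7, about 21 reads) in dF4. Il1r1, the signalling receptor for IL-1, was at 0.1 to 0.4 RPKM in wild type and dF1 and 1.4 (about 4 reads) in dF4, and Il1rl1, the IL-33 receptor, at 0.1 to 0.2 and 2.0 (about 6 reads). These genes and the IL-18 receptor genes form a cluster on chromosome 1, in which Il1r2 alone was above 10 RPKM in dF4 and below 2 elsewhere. Il17ra, the broadly expressed IL-17 receptor, was at similar levels in all libraries, at 78.2 and 78.1 RPKM in wild type, 77.8 and 81.0 in dF1 and 88.9 (77.5 to 102) in dF4.

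The TGF-beta receptor chains also parted in dF4. Tgfbr1, the kinase that phosphorylates SMAD factors, was at 35.6 and 37.1 RPKM in wild type, 35.2 and 28.1 in dF1 and 11.2 (7.93 to 15.4) in dF4. Tgfbr2, the chain that binds the ligand first, was at 36.4 and 28.1 RPKM in wild type, 33.8 and 35.4 in dF1 and 50.7 (42.7 to 59.6) in dF4. In wt and dF1 the chains were at similar levels, with ratios of Tgfbr2 to Tgfbr1 of 0.757 to 1.26, and in dF4 the ratio was 4.53.

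**Figure D5:**
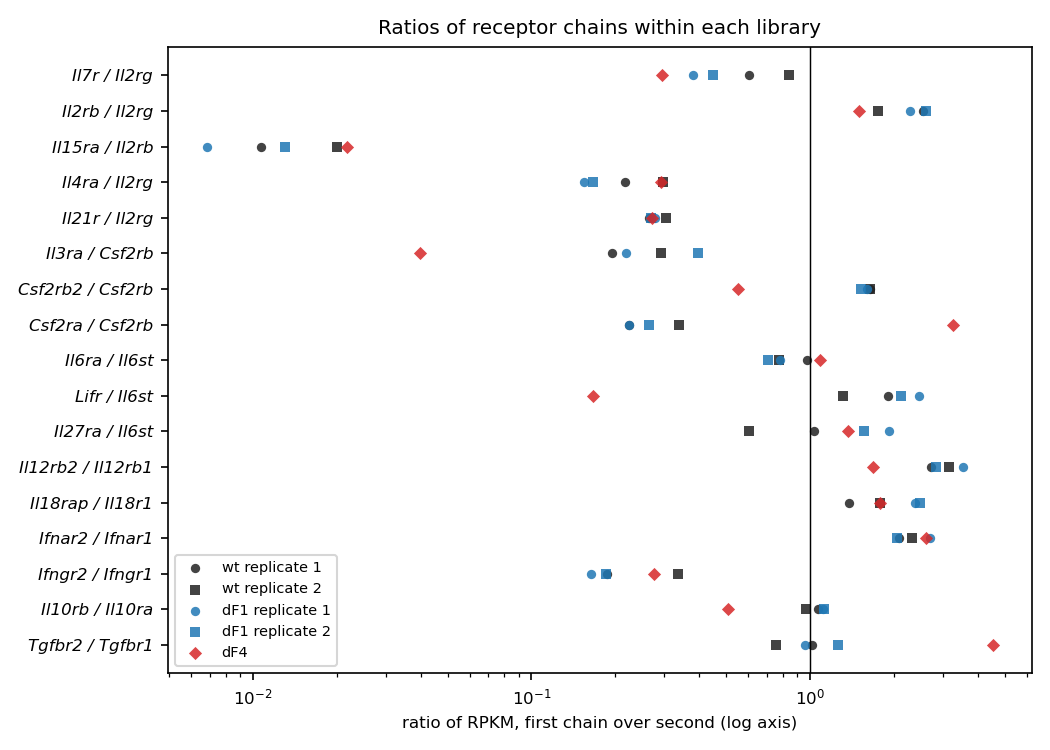
Ratio of the RPKM of chains that pair in a receptor, or of 2 chains that use the same partner, within each library (log axis). Each symbol is 1 library and the line marks equal levels. The dF4 library departs from the other 4 for Il3ra, Csf2rb2 and Csf2ra over Csf2rb, Lifr over Il6st, Il10rb over Il10ra and Tgfbr2 over Tgfbr1, and lies among them for Il21r over Il2rg and Ifnar2 over Ifnar1.

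The wt libraries differed from each other in both directions. Of the 36 tested receptors, 23 were lower and 12 higher in wt replicate 2 than in wt replicate 1. On the log2(RPKM + 1) scale Il2rb differed by -1.22, Il18r1 by -1.01, Ifngr1 by -0.90 and Il2rg by -0.68, while Il3ra differed by 0.77, Csf2ra by 0.78 and Csf3r by 0.63. The 11 NK markers were lower in replicate 2 for 11 of 11 (median -1.08) and the neutrophil markers higher for 14 of 14 (median 1.23). Early B markers were lower for 11 of 12 (median -0.90) and T cell markers for 11 of 12 (median -0.62). For each of these named receptors the difference between wt replicates was larger than the difference between the dF1 and wt means. They were named for their wide wt differences, which favours this outcome. Kit went the other way, at -0.68 between the wt replicates and -0.73 between dF1 and wt.

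Other genes of these pathways were taken from lists of JAK kinases, STAT factors, feedback inhibitors, SMAD mediators, IL-1 signalling genes, cytokine ligands and other cytokine receptors. Between dF1 and wt, limma called 0 in either direction among the 4 JAK, 7 STAT, 12 feedback, 6 SMAD, 7 IL-1 signalling, 9 ligand (of 31 in the table) and 9 other receptor genes (of 23) tested. At an unadjusted p under 0.05 there were 2 feedback inhibitors, 1 IL-1 signalling gene, 3 ligands and 1 other receptor higher in dF1, 1 other receptor lower, and none of the JAK, STAT or SMAD genes, beside 3.11% of all transcripts higher and 4.05% lower. The list medians of the dF1 difference were, in the order named, 0.21, 0.03, 0.16, -0.01, 0.12, 0.15 and -0.08, beside 0.01 over all transcripts.

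By the size rule for dF4, 0 of 4 JAK kinases and 0 of 6 SMAD mediators differed from wt, while 2 of 7 STAT factors were lower, beside 13.4% of all transcripts higher and 12.9% lower. Lists this short are too small to be read against those shares. Stat5a, which carries IL-7 and IL-2 signals, was at 4.9 RPKM in dF4 against 19.4 and 20.5 in the wt libraries, and Stat2, of the type I interferon pathway, at 23.5 against 77.8 and 109.5. Of the 12 feedback inhibitors, 3 were higher in dF4 and 1 lower. Usp18, which dampens the type I interferon receptor, was the lower one, at 27 and 35.1 RPKM in wild type, 54 and 32.1 in dF1 and 3.8 (about 4 reads) in dF4. Cish, a STAT5-induced inhibitor, was at 4 and 2.1 RPKM in wild type, 5.9 and 5.5 in dF1 and 12.4 in dF4, so that every mutant library lay above wt. Socs3, which inhibits gp130 signals, was at 10.3 and 4.2 RPKM in wild type, 6.4 and 7.7 in dF1 and 19.1 in dF4. Socs2 was at 2.8 and 0.5 RPKM in wild type, 6.1 and 3.8 in dF1 and 1.5 in dF4 (dF1 difference 1.29, limma adjusted p = 0.683).

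Of the IL-1 signalling genes, Irak3, an inhibitor in myeloid cells, was at 1 RPKM in each wt library, 0.5 and 0.8 in dF1 and 15.7 in dF4, and Irak2 at 8.9 and 7.9 RPKM in wild type, 11.5 and 13.4 in dF1 and 4.4 in dF4. The ligand Il1b was at 1.1 and 2.4 RPKM in wild type, 0.3 and 1.4 in dF1 and 41.3 in dF4, and Il15 at 1.8 and 0.8, 1.4 and 1, and 5.4 (about 4 reads). Il27 and Tgfb2 were at 0.1 RPKM or below in wt and dF1 and at 2.4 (about 1 read) and 1.4 (about 4 reads) in dF4. Among other receptors, Il17rb, which binds IL-25, was at 30.1 and 34.5 RPKM in wild type and 24.9 and 19.7 in dF1, and was listed at 0 in dF4. The leptin receptor Lepr was at 0.1 RPKM or below in wt and dF1 and at 3 (about 10 reads) in dF4, and Pdgfrb was at 0.9 to 1.5 in wt and dF1 and 4.3 in dF4. Both genes are also stromal markers, and the 8 others of that list summed to 2.1 to 15 RPKM in wt and dF1 and 110.4 in dF4, of which Cxcl12 made 62.6. Pdgfra, another of them, was listed at 0 in every library, and the part of stromal RNA was not tested.

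Promoters were searched for TGGGAA, which holds the GGGAA core that Ikaros binds, on either strand, in RefSeq promoters of 300 bases (250 before and 50 after the start, GRCm38.p6). The receptors had 39 promoters, of 31 genes, and 8 of the 39 held it, against 25.6% of 32851 promoters. The 8 belong to Csf2ra, Il18r1, Il1r1, Il1rl1, Il2rg and Il6ra, with several from Il18r1 alone. Among genes lower in dF4 by the size rule, tested or not, TGGGAA was in 0 of 8 with an entry, and among those higher in 2 of 9. The promoters of the receptor with the smallest dF1 p-value and of the one farthest below wt in dF4 on the log2(RPKM + 1) scale are shown, with the match in capitals. A match is a string of letters and not a measured site. The shorter core GGGAA was not counted, and the Flt3 promoter, with no match to TGGGAA, holds that core on the other strand (ttccc).
Il6ra, chr3:89913147-89913446, minus strand: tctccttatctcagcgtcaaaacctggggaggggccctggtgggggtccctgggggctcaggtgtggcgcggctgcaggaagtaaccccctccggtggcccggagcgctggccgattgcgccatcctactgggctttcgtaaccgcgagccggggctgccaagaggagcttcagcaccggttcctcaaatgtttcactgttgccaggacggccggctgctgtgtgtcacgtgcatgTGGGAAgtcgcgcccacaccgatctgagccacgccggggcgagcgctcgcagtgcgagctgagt
Flt3, chr5:147400440-147400739, minus strand: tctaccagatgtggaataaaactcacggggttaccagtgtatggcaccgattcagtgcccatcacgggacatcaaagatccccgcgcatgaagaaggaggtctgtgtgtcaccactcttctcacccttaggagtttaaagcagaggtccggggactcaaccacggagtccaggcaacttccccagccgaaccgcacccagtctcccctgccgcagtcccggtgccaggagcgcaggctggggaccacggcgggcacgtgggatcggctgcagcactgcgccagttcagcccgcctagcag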

How the data were processed

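The authors deposited 1 table of RPKM, per the file headers, with a row and a length for every RefSeq transcript and values to 1 decimal. TopHat, bedtools and build mm9 are named, with no version, in the submitters' processing notes. Libraries were made with Illumina TruSeq per the labels' protocols. Not given in the sources used here are the strand setting, read length and treatment of reads shared by copies. It held 26531 transcripts, and 1 line that named no gene was left out. Because RPKM are not counts, no count test was run.

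Values were taken as log2(RPKM + 1), a scale that understates changes of low transcripts, and dF1 was compared with wt (2 against 2, two-sided) by limma 3.58.1 (R 4.3.3), using its moderated variances with an intensity trend. Transcripts had to average 1 RPKM or more across all 5 libraries, and p-values were adjusted over the 12213 that did (Benjamini-Hochberg, threshold 0.05). Of 2201 low values of the dF4 library, 82.6% were whole multiples of 1.674 RPM (within 0.1 read), which gives its estimated reads. No such step was found in wt or dF1. Windows of 50 bases were compared on both strands with GENCODE M21 transcripts, and coding sequences aligned with Biopython 1.88. Matches to another gene were absent in 20 of 39 receptors, under 1% of windows in 6 and 1% or more in 13, highest in Il2rg (42.0%). Values in every library are given for receptors with a wt mean of at least 10 RPKM or a difference by the rules stated. The receptors and all lists were chosen with earlier results of these data known. The promoter search left out chromosome 18. Any of the 39 receptors that is also a cell type marker was left out of the marker sums. One gene of the pathway lists is not reported here.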

Additional observations from a re-analysis of the deposited data

How the results depend on the processing

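Alternatives were pseudocounts of 0.1 and 5, no filter, a filter of 5 RPKM or over the wt and dF1 libraries alone, quantile normalization, median centring, robust variances, summed transcripts, the replicate block and leaving out each wt and dF1 library. In each of them 0 receptors were called in dF1, and Kit, Il6ra, Il2rb, Il18rap, Il12rb2 and Il27ra kept their direction where tested. The count of all transcripts called, 0 as reported, was 245 with no filter, 25 with the filter of 5 RPKM and 33 with robust variances, and the cause was not tested. The median dF1 difference over receptors lay between -0.10 and 0.02. With the replicate number as a block, 0 transcripts were called and Il6ra had an adjusted p of 0.318. The labels do not say that the numbers pair the samples, and the differences between replicates of wt and of dF1 had a correlation of 0.305 over transcripts. In dF4 the receptors different from wt numbered 15 to 20 over the alternatives, and their median difference of 0.03 ranged from -0.09 to 0.37 when 1 wt library was left out. A filter on the wt libraries, chosen after seeing the data, gave 16 of 34. The dF4 rule is limited by depth, since 11 of 39 receptors there rest on 20 or fewer estimated reads.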
